A study of Homo sapiens with 18 samples.

Results

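The genes described here act in the response to low oxygen and in glycolysis. They were listed by symbol, 40 in all, with earlier results of these data known, and not by a measured value. They fall into 3 subunits of the hypoxia-inducible factors (HIF), 2 prolyl hydroxylases, 15 HIF target genes outside metabolism, 16 genes of glucose uptake and glycolysis, and 4 genes of pyruvate, lactate and glycogen. Of the 40 genes, 38 had a probe set annotated to them alone and were measured, and all 38 passed the filter on low signal, among 14418 genes tested in the whole series. CA9 and SLC16A3 were not analysed here.

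The arrays measured RNA of human osteosarcoma cells of the established lines 143B and MNNG/HOS (called MNNG), which carried the fluorescent protein ZsGreen and had been transplanted to form bone tumors in a host animal. Cells were sorted by PKH26, a membrane dye that thins out as cells divide, into dye-retaining cells (High, named tumor-initiating cells in the labels) and dye-poor cells (Low, named bulk tumor cells). There were 4 MNNG_High, 4 MNNG_Low, 3 143B_High and 5 143B_Low arrays, and 2 MNNG_Lung arrays of lung metastases, for which a PKH26 sort is not stated in the sources used here. High and Low cells of MNNG came from the same 4 tumors (MNNG-1231, then MNNG-1232, MNNG-1233, and last MNNG-1235). In 143B this holds for tumor 143B-1253, while the other 2 High arrays, 143B-51&52 and 143B-54&55, each pool 2 tumors, read from their numbers as 143B-1251 plus 143B-1252 for the first pool, and 143B-1254 plus 143B-1255 for the second. Each line is a single line, all 143B arrays share a date tag that no MNNG array has, and line and date tag therefore cannot be told apart.

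HIF is a pair of an oxygen-regulated alpha subunit, HIF1A or EPAS1, and the partner ARNT. While oxygen is present, prolyl hydroxylases such as EGLN1 and EGLN3 mark the alpha subunit for destruction. When oxygen is short the alpha subunit persists, binds DNA at a short core motif with ARNT, and raises the transcription of genes for glucose uptake, glycolysis, acid handling, mitophagy, blood vessel signals and matrix. The alpha subunits are controlled mostly as proteins, and EGLN3, ADM, NDRG1 and most glycolytic genes are known HIF targets. Solid tumors, osteosarcoma among them, hold poorly oxygenated areas and are known for high glycolysis.

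Values are log2 probe set signals, so that a difference of 1 is a doubling, and each gene was read from its probe set of highest mean signal. A gene was called where the adjusted p was under 0.05 in a limma fit over all 18 arrays, with Benjamini-Hochberg adjustment over all genes tested. Differences are given as log2 difference ± SE of that fit. In pooled RNA of many cells, fewer cells of a kind and less RNA per cell cannot be told apart. The labels do not say how separate the tumors of a line were beyond their numbers, and p-values measure the spread between these arrays.

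The lung arrays stood apart from the bone arrays. Over all genes they correlated with each other at 0.865, against at least 0.956 between arrays within any bone group. Their log2 signals had an interquartile range of 2.28 for MNNG-1233 and 2.09 for the mixture, compared with 2.76 to 3.18 in MNNG_High, 3.29 to 3.40 in MNNG_Low, 3.26 to 3.34 in 143B_High and 3.30 to 3.48 in 143B_Low. Of 7 measured osteoblast lineage markers, RUNX2, COL1A1, COL1A2 and SPARC were above the filter value of 5.36 on every array, and ALPL, SP7 and IBSP were below it on every bone array. The members were mostly bright genes: 25 of the 38 were among the brightest 20% of all genes tested.

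A single member passed the test between dye-retaining and dye-poor MNNG cells. ALDOC, the aldolase isoform best known from brain, was lower in MNNG_High. No HIF subunit, prolyl hydroxylase, HIF target outside metabolism or gene of pyruvate, lactate and glycogen was called. The count was 1 of 38 members, 2.63%, against 26.1% of all genes tested (10.6% higher and 15.5% lower). The median difference was -0.09 over the members and -0.19 over all genes.

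ALDOC read 7.77, 7.92, 7.84 and 7.91 in MNNG_High, against 8.37, 8.33, 8.29 and 8.32 in MNNG_Low, with tumors in the order given above. The 4 MNNG_High values were all below the 4 MNNG_Low values, with no overlap. The difference was -0.47 ± 0.10 (adjusted p = 0.00773, limma), 1.38-fold lower in MNNG_High. The call was lost with date tag as a covariate (-0.51) and after a second quantile normalization (-0.14). All MNNG_High arrays carry 1 tag, which 1 MNNG_Low array, that of MNNG-1231, shares.

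Same-numbered MNNG arrays deviated together over all genes in all 4 tumors, and a fit that took the tumor as a replicate block was therefore made as well. Under that block, without the lung arrays, 8 members were called, all lower in MNNG_High, while 55.8% of all genes were called. They were the HIF subunits EPAS1 (-0.40, limma, adjusted p = 0.0299) and ARNT (-0.37, 0.0304), the hydroxylase EGLN1 (-0.45, 0.0234), and KDM3A, a histone demethylase (-0.55, 0.00689). The other 4 were glycolytic enzymes: GPI (-0.28, 0.038), ALDOC (-0.47, 0.00274), TPI1 (-0.30, 0.0177) and ENO1 (-0.25, 0.0425), with limma's adjusted p after each difference. Tumor by tumor, in the order given above, EPAS1 differed by -0.47, -0.25, -0.94 and 0.08. EGLN1 differed by -0.55, -0.19, -1.10 and 0.03, so neither was lower in MNNG-1235. The median over all genes was -0.28, -0.07, -0.25 and -0.07 in that order. Leaving out the lung arrays alone gave 4 calls, ALDOC, ARNT, ENO1 and TPI1, with 44.4% of all genes called. Bright genes were mostly lower in MNNG_High in the fit over all arrays. The brightest class of 2884 genes, which holds 25 members, had a median difference of -0.29, with 79 called higher and 436 lower. The next class of 2883 genes, which holds 11 members, had a median of -0.38, with 69 called higher and 765 lower. The part of brightness in the members' calls was not tested.

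KDM3A read 6.74, 8.32, 6.79 and 8.15 in MNNG_High, against 7.596, 8.56, 7.74 and 8.30 in MNNG_Low. Tumors MNNG-1231 and MNNG-1233 were low in both fractions and the groups overlapped, but each tumor's MNNG_High value was below its own MNNG_Low value. TPI1, triosephosphate isomerase, read 12.53, 12.77, 12.69 and 12.78 in MNNG_High, against 13.01, 13.00, 12.92 and 13.04 in MNNG_Low, with no overlap. ALDOA had a second probe set that was called lower in MNNG_High while the one used was not. Within every tumor, 11 members were lower in MNNG_High (ALDOA, ALDOC, ARNT, DDIT4, ENO1, GPI, KDM3A, LDHA, PFKP, PGAM1 and TPI1), and 3 were higher (MXI1, NDRG1 and STC1). For all genes those shares were 41.8% lower and 18.9% higher in every tumor.

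Groups without overlap made up 7 of the 38 members (ARNT, STC1, GPI, PFKP, ALDOC, TPI1 and PGAM1), against 29.8% of all genes.

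Other measures moved between these fractions. The 10 measured macrophage markers averaged 5.74 to 6.14 in MNNG_High, against 5.00 to 5.23 in MNNG_Low, and 4 of the 6 tested were called higher in MNNG_High (AIF1, SPI1, FCER1G and C1QA). Of these 10 markers, 4 were below the filter value on every MNNG_High array and 6 on every MNNG_Low array. Dim genes were mostly higher in MNNG_High: the dimmest class of 2884 genes had a median difference of 0.28, with 676 called higher and 105 lower. Called higher as well were 1 of 2 osteoclast, 1 of 3 endothelial, 1 of 3 erythroid and 1 of 4 skeletal muscle markers tested. The 3′ minus 5′ signal of GAPDH, a measure of RNA wholeness, was 0.50 to 0.75 in MNNG_High, against 0.34 to 0.41 in MNNG_Low. With the GAPDH measure as a covariate ALDOC kept its call and STC1 was called higher in MNNG_High. The part of the macrophage markers in the members' differences was not tested.

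**Figure D1:**
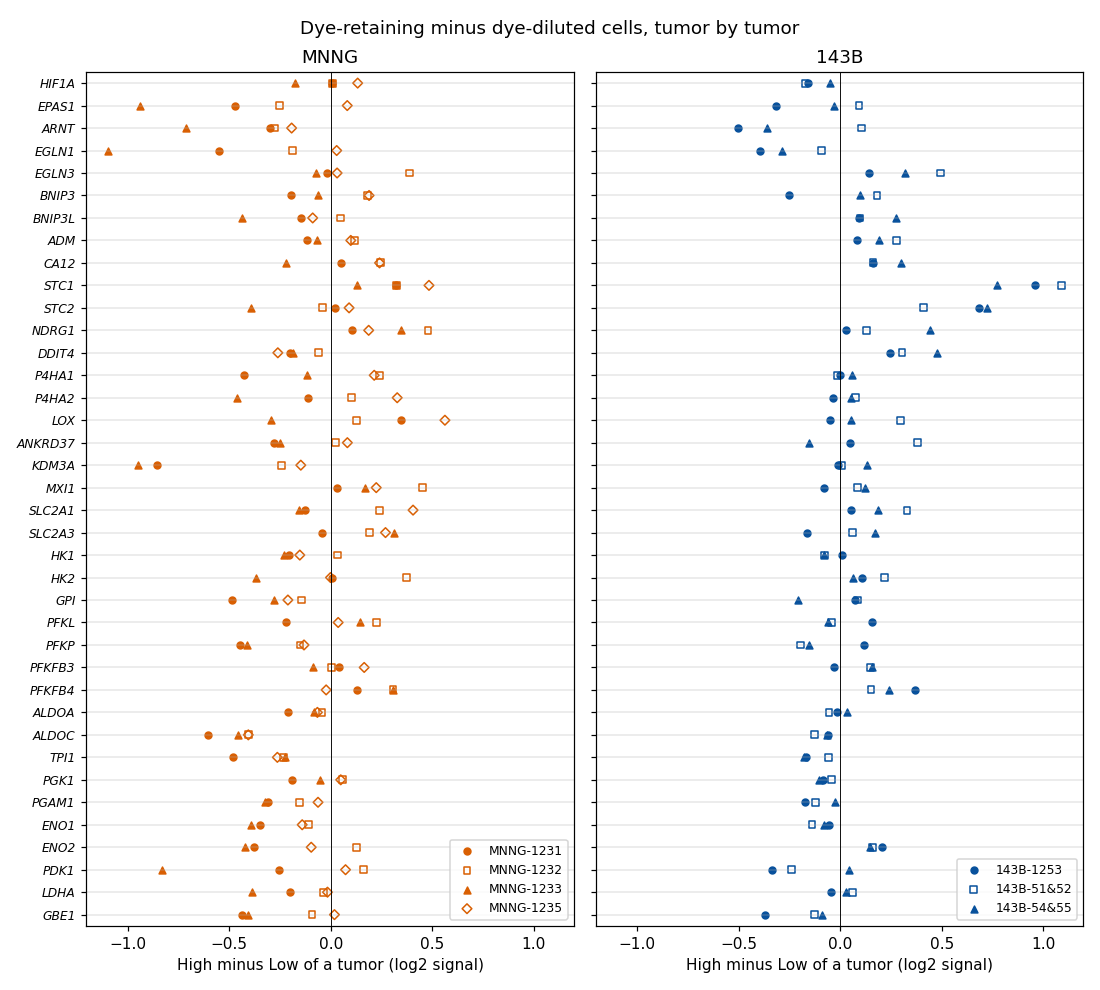
Difference of log2 signal, High minus Low, of each member within each tumor or pool, for MNNG and 143B, with members down the page by role. ALDOC lies below 0 in all 4 MNNG tumors, and STC1 lies above 0 in all 4 MNNG tumors and all 3 pairs of 143B.

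In 143B, no member was called between the dye fractions. The count was 0 of 38, against 0.00694% of all genes, and 2 members and 745 genes had an unadjusted p under 0.05. The members closest to a call were STC1 and STC2, which encode the secreted glycoproteins stanniocalcin 1 and 2. The median difference was 0.02 over the members and -0.02 over all genes. The GAPDH measure was 0.58 to 1.04 in 143B_High, against 0.43 to 0.85 in 143B_Low. Macrophage markers averaged 5.21 to 5.51 in 143B_High, against 4.91 to 5.07 in 143B_Low, and the part of these markers in the members' values was not tested.

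STC1 read 9.99, 9.96 and 9.67 in 143B_High (143B-1253, 143B-51&52 and 143B-54&55), against 8.38, 9.35, 9.03, 9.04 and 8.76 in 143B_Low (143B-1251 to 143B-1255). All 3 143B_High values were above all 5 143B_Low values. The difference was 0.96 ± 0.18 (adjusted p = 0.247, limma), which did not pass. With array weights both genes were called, and with the GAPDH measure given above as a covariate STC1 alone was called. All 3 probe sets of STC1 were higher on average in 143B_High.

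STC2 read 10.005, 9.62 and 9.77 in 143B_High, against 9.12, 9.30, 9.32, 9.35 and 8.74 in 143B_Low, again without overlap. Its difference was 0.63 ± 0.19 (adjusted p = 0.628, limma). HIF1A was the third member without overlap, with 12.21, 12.19 and 12.25 in 143B_High, against 12.34, 12.39, 12.37, 12.27 and 12.33 in 143B_Low, a difference of -0.12 ± 0.20. Groups without overlap made up 3 of 38 members, against 11.9% of all genes. Of the 14 HIF targets outside metabolism, all had a mean above 0 for 143B_High minus 143B_Low, with a median of 0.17, while 8 of 16 glycolytic genes did, and 46.4% of all genes did. Within 143B-1253, however, BNIP3 (-0.25), MXI1 (-0.08), LOX (-0.05), P4HA2 (-0.04), KDM3A (-0.01) and P4HA1 (-0.002) were below 0. Over all members, 12 were higher in 143B_High in every pair, against 19.8% of all genes, and 8 were lower in every pair, against 25.6%.

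The difference between the lines in High minus Low was tested as a term of the same fit. No member was called, against 0.00694% of all genes, and 3 members and 1449 genes had an unadjusted p under 0.05. Those 3 were STC2 (0.71 ± 0.27), STC1 (0.64 ± 0.25) and ALDOC (0.40 ± 0.15), each for 143B minus MNNG. The lowest adjusted p among the members was 0.463 (limma).

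Among the bone tumors, more members were called between the lines than between the dye fractions. ADM and LOX were higher in 143B than in MNNG in both dye fractions. EGLN3, P4HA2, NDRG1, CA12, SLC2A3, SLC2A1 and GBE1 were lower in 143B in both. Among Low arrays 14 of 38 members were called, 3 higher and 11 lower in 143B_Low, against 28.8% of all genes (14.4% higher and 14.5% lower). Among High arrays 11 of 38 were called, 4 higher and 7 lower in 143B_High, against 36.1% of all genes (21.4% higher and 14.7% lower).

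The High and Low comparisons between the lines use different arrays of the same tumors, with the 143B pools read from their numbers. Of the 38 members, 9 were called in both, with the same sign in both. They are 64.3% of the members' calls in Low and 81.8% of those in High. Of all genes tested, 2889 (20%) were called in both, among 4158 called in Low and 5203 called in High. The lines did not overlap for 17 members in Low, against 38.3% of all genes, and for 20 in High, against 42%. Without the lung arrays, 17 members were called in Low (37.2% of all genes) and 16 in High (47.2%). The calls gained were PGK1, STC1 and ALDOA in Low, and ANKRD37, KDM3A, LDHA, MXI1 and PGAM1 in High, ALDOA being lower and the others higher in 143B, and no call was lost. Signs agreed between the fractions for 34 of 38 members. That share was not counted over all genes, and the fractions come from the same tumors by that reading, so it is a description only. The median difference was -0.10 in Low and 0.08 in High over the members, and -0.04 and 0.01 over all genes.

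**Figure D2:**
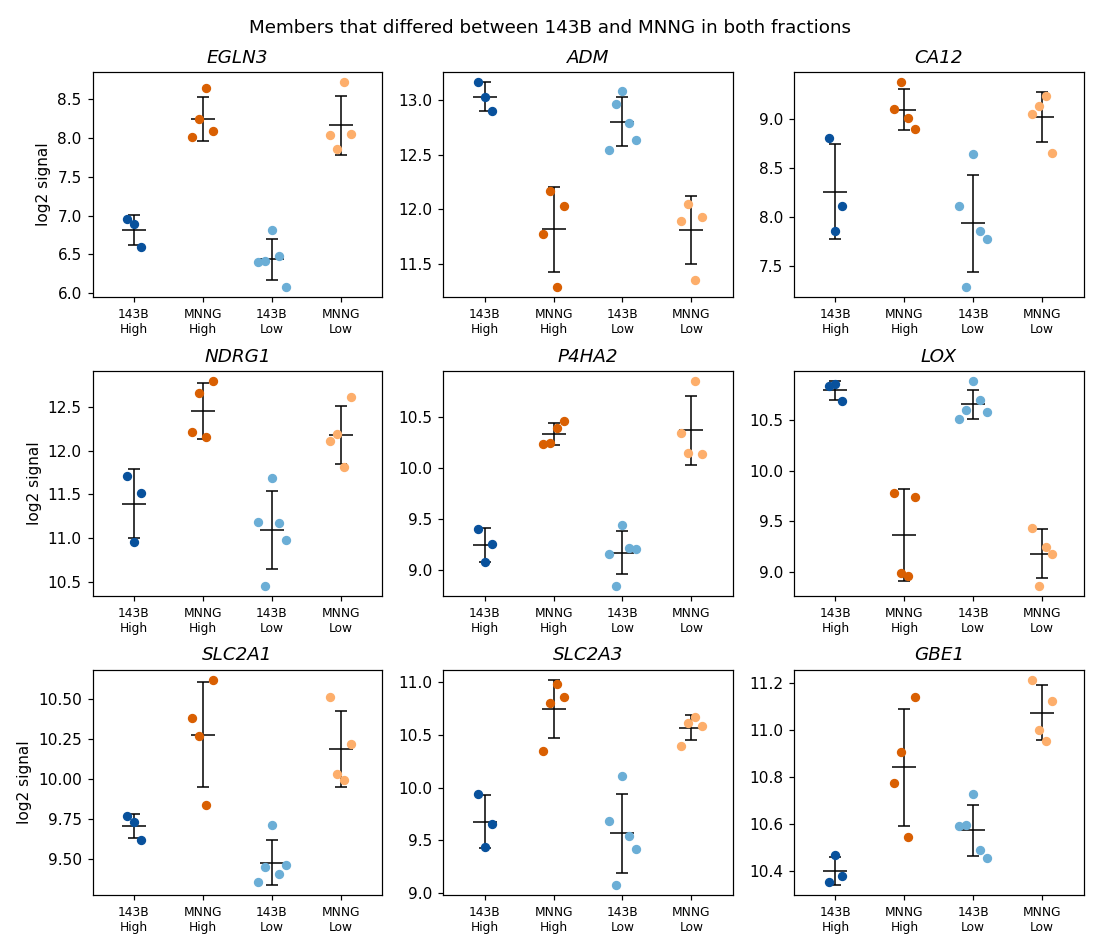
log2 signal (vertical axis) of the 9 members called between the lines in both fractions, a point for each bone array, with the mean and SD of each group. ADM and LOX lie higher in 143B and EGLN3, P4HA2 and NDRG1 lie lower in 143B, in High and in Low cells.

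The core motif that HIF binds is searched here as ACGTG or GCGTG on either strand. Promoters of 3 of the members that differed between the lines are shown, because ADM and LOX were higher in 143B and EGLN3 was lower, to let their upstream sequence be read beside those values. They are the 250 bases before the most upstream start that RefSeq (GRCh38.p14) lists for the gene, 5′ to 3′ on the gene's strand, with matches in capitals.
ADM, chr11:10304823-10305072, plus strand: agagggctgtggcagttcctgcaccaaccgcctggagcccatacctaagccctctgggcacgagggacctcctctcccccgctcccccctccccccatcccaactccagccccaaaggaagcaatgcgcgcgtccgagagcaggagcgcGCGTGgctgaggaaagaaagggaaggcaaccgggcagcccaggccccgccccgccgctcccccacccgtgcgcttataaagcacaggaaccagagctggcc
LOX, chr5:122078260-122078509, minus strand: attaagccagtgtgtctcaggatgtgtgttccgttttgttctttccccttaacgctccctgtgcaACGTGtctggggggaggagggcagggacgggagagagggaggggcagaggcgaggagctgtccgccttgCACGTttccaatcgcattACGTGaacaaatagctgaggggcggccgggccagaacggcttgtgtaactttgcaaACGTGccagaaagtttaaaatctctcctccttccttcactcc
EGLN3, chr14:33951075-33951324, minus strand: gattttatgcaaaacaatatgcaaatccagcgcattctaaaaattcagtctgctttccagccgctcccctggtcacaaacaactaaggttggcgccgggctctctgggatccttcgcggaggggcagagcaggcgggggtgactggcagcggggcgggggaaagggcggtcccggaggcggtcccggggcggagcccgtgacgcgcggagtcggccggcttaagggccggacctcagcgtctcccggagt
ADM holds 1 match, LOX 4 and EGLN3 none in the searched window of 300 bases, which runs on to 50 bases after the start. Of the other members lower in 143B in both fractions, GBE1 holds 3 matches, CA12 2, SLC2A1 1 and P4HA2 0. No window was used for NDRG1 and SLC2A3. A link between matches and the direction of a difference was not tested. Over the 34 measured members with a window, 25 (73.5%) held either motif, against 48.4% of 27303 RefSeq windows of that length, 1 for each gene. The other 9 were ARNT, EGLN3, P4HA2, MXI1, HK1, PFKP, TPI1, PGAM1 and PDK1. For 7 members (P4HA2, KDM3A, GPI, PFKP, PFKFB4, TPI1 and PGAM1) the most upstream window starts inside the annotated gene, and for the other 27 it starts at the annotated start of the gene. ACGTG overlaps its own reverse complement in CACGTG, which counts as 2 matches, and a match is a description of letters, not a bound site.

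EGLN3, the hydroxylase that is itself a HIF target, read 6.40, 6.41, 6.81, 6.48 and 6.08 in 143B_Low, against 8.03, 7.85, 8.72 and 8.06 in MNNG_Low. In High cells it read 6.95, 6.90 and 6.595 in 143B_High, against 8.01, 8.24, 8.64 and 8.09 in MNNG_High. The groups did not overlap in either fraction. The differences were -1.73 ± 0.21 in Low (adjusted p = 5.21e-06) and -1.43 ± 0.24 in High (0.000205), by limma. Its other probe set was called in the same direction in both fractions. EGLN1, the main HIF hydroxylase, differed by -0.29 ± 0.22 in Low and -0.09 ± 0.25 in High and was not called.

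The HIF subunits were not called. HIF1A differed by -0.09 ± 0.19 in Low and -0.21 ± 0.21 in High, EPAS1 by -0.42 ± 0.21 and -0.02 ± 0.24, and ARNT by -0.34 ± 0.23 and -0.23 ± 0.26, each for 143B minus MNNG.

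ADM, which encodes the vasodilator peptide adrenomedullin, read 12.54, 12.96, 13.08, 12.79 and 12.63 in 143B_Low, against 11.90, 12.05, 11.36 and 11.93 in MNNG_Low. In High cells it read 13.16, 13.03 and 12.90 in 143B_High, against 11.78, 12.17, 11.29 and 12.03 in MNNG_High. Every 143B value was above every MNNG value, and MNNG-1233 was the lowest MNNG tumor in both fractions. The differences were 0.99 ± 0.21 (adjusted p = 0.00141) and 1.21 ± 0.24 (0.00084, limma).

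LOX, lysyl oxidase, which crosslinks collagen and elastin, read 10.51, 10.61, 10.89, 10.70 and 10.58 in 143B_Low, against 9.44, 8.86, 9.25 and 9.18 in MNNG_Low. It read 10.84, 10.86 and 10.69 in 143B_High, against 9.78, 8.99, 8.96 and 9.74 in MNNG_High. The lines did not overlap, and the MNNG tumors were spread more widely than the 143B tumors. The differences were 1.48 ± 0.30 (2.78-fold, adjusted p = 0.00097) and 1.43 ± 0.34 (2.69-fold, 0.00372), by limma. LOX has 3 probe sets, and both of those tested were called in both fractions.

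P4HA2, a catalytic subunit of the collagen prolyl hydroxylase, read 9.15, 8.84, 9.44, 9.21 and 9.20 in 143B_Low, against 10.34, 10.15, 10.85 and 10.13 in MNNG_Low, and 9.40, 9.07 and 9.26 in 143B_High, against 10.23, 10.25, 10.39 and 10.46 in MNNG_High. No 143B value reached an MNNG value. The differences were -1.20 ± 0.18 (adjusted p = 4.32e-05) and -1.09 ± 0.20 (0.000491, limma). P4HA2 has 3 probe sets, and the other one tested had the same sign and was not called, at -0.19 and -0.09. P4HA1, the sister subunit, differed by 0.10 ± 0.14 and 0.13 ± 0.16 and was not called.

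NDRG1, a stress-responsive gene, read 11.19, 10.45, 11.69, 11.17 and 10.98 in 143B_Low, against 12.12, 12.19, 11.81 and 12.61 in MNNG_Low. In High cells it read 11.71, 10.95 and 11.51 in 143B_High, against 12.22, 12.67, 12.15 and 12.80 in MNNG_High. The lines did not overlap, although in Low cells 143B-1253 lay close to the lowest MNNG tumor. The differences were -1.09 ± 0.23 (adjusted p = 0.00117) and -1.07 ± 0.26 (0.00392, limma).

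CA12, a carbonic anhydrase of the cell surface, read 8.12, 7.29, 8.64, 7.86 and 7.78 in 143B_Low, against 9.06, 9.13, 9.23 and 8.66 in MNNG_Low. It read 8.80, 7.86 and 8.12 in 143B_High, against 9.11, 9.38, 9.01 and 8.89 in MNNG_High. Tumor 143B-1253 was the highest of its line and lay just under the MNNG values. The differences were -1.08 ± 0.24 (adjusted p = 0.00213) and -0.84 ± 0.28 (0.0255, limma), and of its 7 probe sets 5 were called in Low and 3 in High, all lower in 143B. The call in High was lost with the GAPDH measure as a covariate, without probe sets of names ending _x_at or _s_at, and when the High array of 143B-51&52, 143B-54&55 or MNNG-1232 was left out.

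Both glucose transporters were lower in 143B. SLC2A3 read 9.68, 9.08, 10.11, 9.54 and 9.42 in 143B_Low, against 10.40, 10.62, 10.67 and 10.59 in MNNG_Low, and 9.94, 9.44 and 9.66 in 143B_High, against 10.35, 10.81, 10.98 and 10.86 in MNNG_High. The lines did not overlap, and all 3 probe sets were called lower in 143B in both fractions. The differences were -0.9995 ± 0.19 (adjusted p = 0.000454) and -1.07 ± 0.21 (9e-04, limma).

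SLC2A1, the widely expressed glucose transporter, read 9.35, 9.45, 9.71, 9.40 and 9.46 in 143B_Low, against 10.51, 10.03, 9.99 and 10.22 in MNNG_Low. It read 9.77, 9.73 and 9.62 in 143B_High, against 10.38, 10.27, 9.84 and 10.62 in MNNG_High. The highest 143B values stayed below the lowest MNNG value within each fraction. The differences were -0.71 ± 0.15 (adjusted p = 0.00168) and -0.57 ± 0.18 (0.0179, limma). Without the High array of 143B-54&55 the call in High was lost.

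GBE1, the glycogen branching enzyme, read 10.59, 10.60, 10.73, 10.49 and 10.46 in 143B_Low, against 11.21, 11.0002, 10.95 and 11.12 in MNNG_Low. In High cells it read 10.36, 10.47 and 10.38 in 143B_High, against 10.78, 10.91, 10.54 and 11.14 in MNNG_High. The lines did not overlap in either fraction. The differences were -0.50 ± 0.12 (adjusted p = 0.00376) and -0.44 ± 0.14 (0.0189, limma), and the call in High was lost with median centring, in a fit of the groups compared alone, and without the High array of 143B-1253 or 143B-54&55.

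The other 7 calls between the lines were made in a single fraction, and a difference between the fractions was not called for any of them. Higher in 143B_Low was MXI1, a MYC antagonist, with 10.81, 10.53, 10.46, 10.76 and 10.71 in 143B_Low, against 10.02, 9.96, 9.62 and 10.26 in MNNG_Low (0.69 ± 0.18, adjusted p = 0.0064, limma). In High its difference was 0.48 ± 0.20, and the 143B_High and MNNG_High values overlapped. Higher in 143B_High were STC1 (1.07 ± 0.19, adjusted p = 0.000284) and STC2 (0.79 ± 0.20, 0.00577), by limma. STC1 read 9.99, 9.96 and 9.67 in 143B_High, against 8.76, 8.76, 8.602 and 9.08 in MNNG_High, without overlap. STC2 read 10.005, 9.62 and 9.77 in 143B_High, against 9.22, 8.92, 8.49 and 9.41 in MNNG_High, also without overlap. In Low the differences were 0.43 ± 0.17 and 0.08 ± 0.18.

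Called lower in Low cells alone were DDIT4, an inhibitor of mTORC1, and the glycolytic genes GPI, PFKP and ALDOC. DDIT4 read 10.19, 10.25, 10.97, 10.56 and 9.52 in 143B_Low, against 11.45, 11.63, 11.20 and 10.61 in MNNG_Low, with an overlap between 143B-1253 and MNNG-1235 (-0.92 ± 0.29, adjusted p = 0.0212, limma). Its call was lost after a second quantile normalization, with the GAPDH measure as a covariate, and without the Low array of 143B-1255, MNNG-1231 or MNNG-1232. GPI, glucose phosphate isomerase, read 10.06, 9.83, 10.45, 10.25 and 10.31 in 143B_Low, against 10.84, 10.64, 10.79 and 10.70 in MNNG_Low (-0.56 ± 0.13, adjusted p = 0.00353, limma). ALDOC read 7.76, 7.72, 7.84, 7.65 and 7.88 in 143B_Low, against 8.37, 8.33, 8.29 and 8.32 in MNNG_Low (-0.56 ± 0.10, adjusted p = 0.000245, limma). Neither gene overlapped between the lines. PFKP, the platelet-type phosphofructokinase, read 11.16, 10.69, 11.01, 11.14 and 11.08 in 143B_Low, against 11.74, 11.37, 11.65 and 11.42 in MNNG_Low (-0.53 ± 0.19, adjusted p = 0.0479, limma). Its values did not overlap either, but the call was lost whichever of the 9 Low arrays was left out, and also after a second quantile normalization, with no filter and with the GAPDH covariate.

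The other 22 members were called in neither fraction. LDHA, which makes lactate, differed by 0.18 ± 0.37 in Low and 0.37 ± 0.42 in High, and PGK1, phosphoglycerate kinase, by 0.41 ± 0.44 and 0.39 ± 0.51. The shared fit takes the spread of the lung arrays into these SEs, and the calls without them are given above. The enolase ENO1, the aldolase ALDOA and TPI1 differed by -0.07, -0.22 and -0.11 in Low and by 0.09, -0.13 and 0.08 in High. The mutase PGAM1, the enolase ENO2, the phosphofructokinase PFKL, its regulators PFKFB3 and PFKFB4, and the hexokinase HK1 differed by 0.17, -0.29, -0.18, -0.18, 0.28 and 0.15 in Low. HK2, the inducible hexokinase, differed by 0.41 ± 0.20 in Low and 0.53 ± 0.23 in High, while 2 of its 3 probe sets were called higher in 143B in both fractions, so the probe sets disagreed on the call. PDK1, which restrains pyruvate entry to mitochondria, differed by 0.10 ± 0.27 and 0.16 ± 0.31. BNIP3 and BNIP3L, mitophagy receptors, differed by 0.12 ± 0.18 and -0.06 ± 0.12 in Low. ANKRD37, an ankyrin repeat protein, and KDM3A differed by 0.30 ± 0.18 and 0.28 ± 0.32 in Low and 0.52 ± 0.21 and 0.84 ± 0.36 in High.

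**Figure D3:**
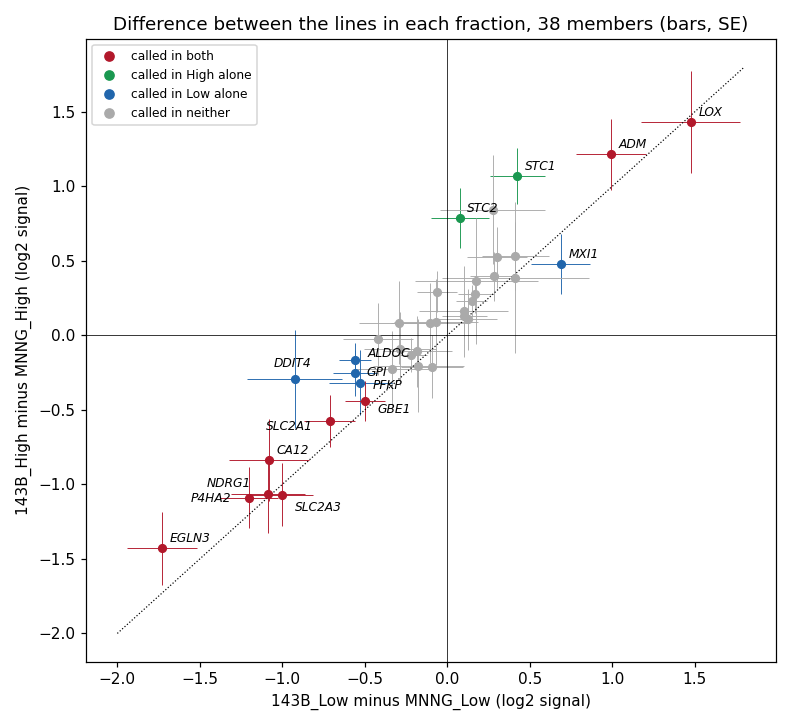
Difference of log2 signal of each member between the lines (143B minus MNNG) in High cells against that in Low cells, with bars for the SE, colors for where each was called and a dotted line of equal differences. The 9 members called in both lie in the same direction on both axes.

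The osteoblast lineage markers moved with the line too. RUNX2, COL1A1, COL1A2 and SPARC were all called lower in 143B in both fractions, with mean levels over the 7 measured markers of 6.49 to 7.29 in 143B_Low, against 7.99 to 8.47 in MNNG_Low. Macrophage markers averaged 4.91 to 5.07 in 143B_Low, against 5.00 to 5.23 in MNNG_Low, and 5.21 to 5.51 in 143B_High, against 5.74 to 6.14 in MNNG_High. The part of these markers in the members' differences was not tested. The GAPDH 3′ minus 5′ signal was 0.43 to 0.85 in 143B_Low, against 0.34 to 0.41 in MNNG_Low, without overlap, and 0.58 to 1.04 in 143B_High, against 0.50 to 0.75 in MNNG_High. With it as a covariate DDIT4 and PFKP lost their calls in Low and CA12 its call in High, while STC1 in Low and ANKRD37 and PFKFB4 in High were called higher in 143B.

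Among other genes of the pathway, listed with the members, the largest group was 28 further HIF targets. Of these, 8 were higher and 6 lower in 143B_Low, and 10 were higher and 6 lower in 143B_High, with 28.8% of all genes called in Low and 36.1% in High. VLDLR, a lipoprotein receptor, differed by 2.51 ± 0.22 in Low and 2.38 ± 0.25 in High, and WSB1, a ubiquitin ligase adaptor, by -3.01 ± 0.33 and -2.95 ± 0.38 (all called, limma). Of 16 further genes of pyruvate and lactate handling, 1 was higher and 9 lower in 143B_Low, among them ME1, malic enzyme (-1.36 ± 0.16), and BSG, the partner of lactate transporters (-0.98 ± 0.11). In MNNG_High against MNNG_Low, 6 of those 16 were called, all lower, against 15.5% of all genes called lower. All 16 differences were below 0, while 36.6% of all genes were above 0, with DLAT at -0.70 ± 0.14 and MPC2, a subunit of the mitochondrial pyruvate carrier, at -0.47 ± 0.13. VEGFA, the main vessel growth factor under HIF control, was higher in MNNG_High, at 0.60 ± 0.17 (adjusted p = 0.022, limma), and of the 28 further HIF targets PFKFB1 was the other call. With date tag as a covariate, nearly all calls of MNNG_High against MNNG_Low were lost over all genes. Whether the genes of these lists kept their calls there was not looked at. In 143B_High against 143B_Low, no gene of these lists was called.

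Tumors of a line differed from each other in the members, and in MNNG the fractions of a tumor did so together. Over the 38 members, deviations from the group means correlated between MNNG_High and MNNG_Low of the same tumor at 0.747 in MNNG-1233, 0.789 in MNNG-1235, 0.850 in MNNG-1231 and 0.857 in MNNG-1232. Over all genes the values in that order were 0.299, 0.579, 0.494 and 0.370. Most members are brighter than most genes, and other genes of like brightness were not compared. All 12 pairs of different MNNG tumors were below 0 over the members. Deviations from means of 4 arrays are negatively tied by construction, genes are not independent replicates, and these are descriptions. In 143B, the High and Low arrays of 143B-1253 correlated at 0.820 over the members and 0.542 over all genes. The pool 143B-51&52 correlated at 0.774 with 143B-1252 and at -0.386 with 143B-1251, and 143B-54&55 at 0.531 with 143B-1255 and at -0.036 with 143B-1254, over the members. The highest value of 143B-54&55 was with 143B-1251, read as a tumor of the other pool, at 0.634 over the members and 0.259 over all genes, where 143B-1254 and 143B-1255 gave 0.243 and 0.063.

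MNNG-1233 was the lowest of the 4 tumors in both fractions for 13 members: BNIP3, ADM, STC2, NDRG1, MXI1, SLC2A1, HK2, PFKFB3, PGK1, PGAM1, ENO2, PDK1 and GBE1. Of all genes, 9.67% were lowest there in both fractions. MNNG-1235 was the highest in both for 13 members, against 15.1% of all genes: HIF1A, EGLN1, BNIP3, STC1, STC2, NDRG1, P4HA1, MXI1, PFKFB3, PFKFB4, TPI1, PGK1 and PDK1. These tumors were picked out after their values were seen, so the counts carry no test. EGLN3 and SLC2A3 went the other way and were highest in MNNG-1233 in both fractions. With tumors in the order of their numbers, the interquartile range of log2 signals was 2.84, 3.07, 2.76 and 3.18 in MNNG_High. In MNNG_Low it was 3.29, 3.32, 3.40 and 3.36. The part of the signal range in these counts was not tested.

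PGK1 shows the pattern at a high signal, with 13.17, 13.28, 12.72 and 13.52 in MNNG_High and 13.36, 13.22, 12.77 and 13.47 in MNNG_Low with tumors in the same order. MNNG-1233 was lowest and MNNG-1235 highest in both. HK2 read 9.90, 9.95, 8.83 and 9.86 in MNNG_High and 9.90, 9.58, 9.19 and 9.87 in MNNG_Low, and MNNG-1233 was lowest in both. ENO2 read 8.74, 8.87, 7.78 and 8.9998 in MNNG_High and 9.12, 8.74, 8.20 and 9.10 in MNNG_Low, and again MNNG-1233 was lowest in both. BNIP3 read 12.20, 12.62, 11.86 and 12.79 in MNNG_High and 12.39, 12.44, 11.92 and 12.60 in MNNG_Low, with the same order at its ends.

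The upstream sequences of PGK1 and HK2 are shown because both genes were lowest in MNNG-1233 and both windows hold the HIF core motif more than once, with matches in capitals (RefSeq, GRCh38.p14, 250 bases before the most upstream start).
PGK1, chrX:78103998-78104247, plus strand: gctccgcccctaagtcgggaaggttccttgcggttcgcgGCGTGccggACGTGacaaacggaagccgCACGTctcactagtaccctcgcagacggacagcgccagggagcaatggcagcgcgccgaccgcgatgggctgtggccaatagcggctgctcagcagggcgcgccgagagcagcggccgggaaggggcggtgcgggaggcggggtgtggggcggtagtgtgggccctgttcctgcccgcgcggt
HK2, chr2:74833877-74834126, plus strand: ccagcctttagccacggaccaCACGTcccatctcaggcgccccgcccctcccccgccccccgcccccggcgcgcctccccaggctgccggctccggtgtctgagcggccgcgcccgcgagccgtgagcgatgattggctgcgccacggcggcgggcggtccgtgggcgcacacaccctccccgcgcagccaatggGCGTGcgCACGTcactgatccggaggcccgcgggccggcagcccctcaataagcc
PGK1 holds 4 matches in the searched window, 3 of them in the bases shown, and HK2 holds 3, all shown. Both were picked with their matches known, so their counts carry no test. Among the other members lowest in MNNG-1233 in both fractions, BNIP3 holds 6 matches, and STC2 and GBE1 hold 3 each. ADM, SLC2A1, PFKFB3 and ENO2 hold 1 each, MXI1, PGAM1 and PDK1 hold 0, and NDRG1 had no window. Of the 34 measured members with a window, 12 (35.3%) held at least 2 matches, against 23.2% of all windows.

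**Figure D4:**
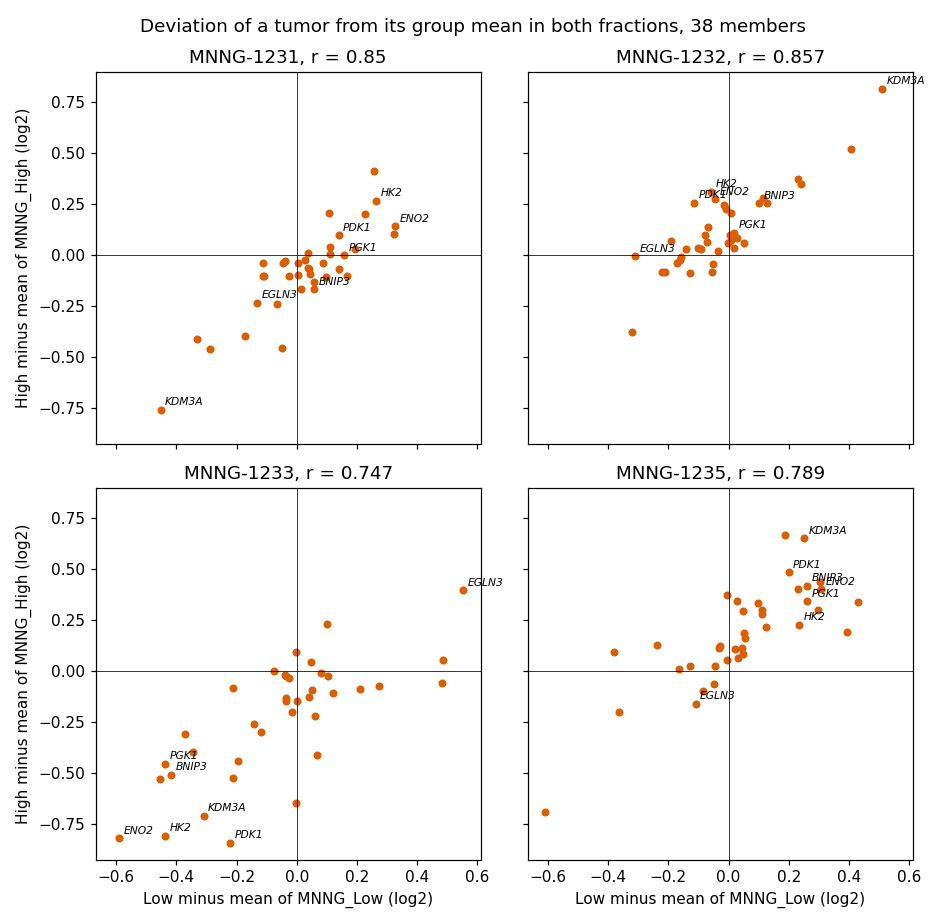
Deviation of each member's log2 signal from the mean of MNNG_High (vertical axis) against that from the mean of MNNG_Low (horizontal axis), a panel for each MNNG tumor and a point for each of the 38 members. In MNNG-1233 many points lie at the lower left, with EGLN3 at the upper right, and in MNNG-1235 many lie at the upper right.

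In 143B, 143B-1253 was highest in both fractions for 14 members, against 12.6% of all genes: EPAS1, EGLN3, BNIP3L, ADM, CA12, NDRG1, DDIT4, P4HA2, SLC2A1, SLC2A3, GPI, PFKFB4, TPI1 and PGK1. On 143B_Low arrays alone, 143B-1252 was lowest for 16 members. DDIT4 was the most variable member there, with an SD of 0.53 in 143B_Low, and KDM3A was the most variable in MNNG_High, with an SD of 0.85. Over all members the median SD was 0.28 in MNNG_High, 0.20 in MNNG_Low, 0.15 in 143B_High and 0.15 in 143B_Low, against 0.29, 0.15, 0.14 and 0.15 over all genes.

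On the lung arrays most members were far lower than in the bone tumors of MNNG. Against MNNG_Low, 33 of 38 members were called, all lower, while 87% of all genes were called (51.9% lower). Against MNNG_High, 35 were called, 34 lower and ALDOC higher (0.33), while 82.4% of all genes were called (47.6% lower). The call of ALDOC was lost with median centring, with array weights, in a fit of the groups compared alone and without the array of the mixture, and over the alternatives its difference was 0.06 to 1.58. The median difference was -3.87 over the members and -0.64 over all genes against MNNG_Low, and -3.51 over the brightest 20% of all genes, where most members lie. These lung arrays had the narrow signal range given above, and macrophage markers averaged 6.97 to 7.02 there, with 0 of 10 below the filter value on both arrays. Other markers moved with the lung arrays as well. Of the tested osteoblast lineage genes 3 of 4 were called lower against MNNG_Low, with a median of -4.20. ALPL, SP7 and IBSP, not among those tested, went the other way. They were below the filter value on every bone array, but all 7 measured lineage markers were above it on both lung arrays. Dim genes were mostly higher there: the dimmest 2884 genes tested had a median of 1.34 against MNNG_Low, with 2256 called higher and 272 lower. The endothelial markers averaged 5.97 to 6.48 in MNNG_Lung, against 4.62 to 4.84 in MNNG_Low, and the erythroid markers 7.32 to 7.68 in MNNG_Lung, against 5.55 to 5.92 in MNNG_Low, and 3 of 3 tested genes of each were called higher. The part of the signal range and of these markers in the members' differences was not tested.

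BNIP3 read 5.28 and 4.92 in MNNG_Lung (the array of MNNG-1233 and the mixture), against 11.92 to 12.60 in MNNG_Low, at least 126-fold lower in MNNG_Lung (adjusted p = 1.03e-14, limma), a bound of the MNNG_Low mean against the filter value, since neither lung value reached it. PGK1 read 8.70 and 4.97 in MNNG_Lung, against 12.77 to 13.47 in MNNG_Low. LDHA read 8.85 and 5.63 in MNNG_Lung, against 13.26 to 13.47 in MNNG_Low. Both lung arrays lay below every bone array for each gene, but they differed widely from each other for PGK1 and LDHA. Of the 6 probe sets of PGK1, 5 were called lower in MNNG_Lung and the sixth, of low signal, was called higher. GBE1 read 5.12 and 5.22 and P4HA1 5.31 and 5.29 in MNNG_Lung, against 10.95 to 11.21 and 10.84 to 10.98 in MNNG_Low, at least 52.3-fold and 45.9-fold lower by the same bound. Values at or under the filter value of 5.36 say little about how far a level fell, and 4 members were under it on both lung arrays and 8 on 1 of them.

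Members that stood nearest to their bone levels were few. BNIP3L, STC1, PFKL, PFKFB4 and ALDOC were not called against MNNG_Low, with differences of -0.32 ± 0.16, -0.36 ± 0.21, -0.38 ± 0.35, 0.12 ± 0.19 and -0.14 ± 0.13. After a second quantile normalization BNIP3L, STC1, PFKFB4 and ALDOC were called higher in MNNG_Lung, as was MXI1, and ARNT, CA12 and EGLN3 were no longer called, which gave 5 higher and 29 lower. Median centring instead gave 36 lower, with BNIP3L, STC1 and ALDOC among them. Without the lung array of the mixture PFKL was called higher and MXI1 was not called, and without that of MNNG-1233 BNIP3L and PFKL were called lower. BNIP3L read 10.25 and 10.06 in MNNG_Lung, against 10.40 to 10.53 in MNNG_Low, while its relative BNIP3 was under the filter value on both lung arrays. SLC2A1 was called lower, at -4.30 ± 0.20, but its other probe set gave only -0.29 and was not called. Groups did not overlap for 35 members against MNNG_Low, with 85.7% of all genes, and for 35 against MNNG_High, with 77.6%. Both lung arrays were below every bone array for 31 of 38 members, against 42.6% of all genes.

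**Figure D5:**
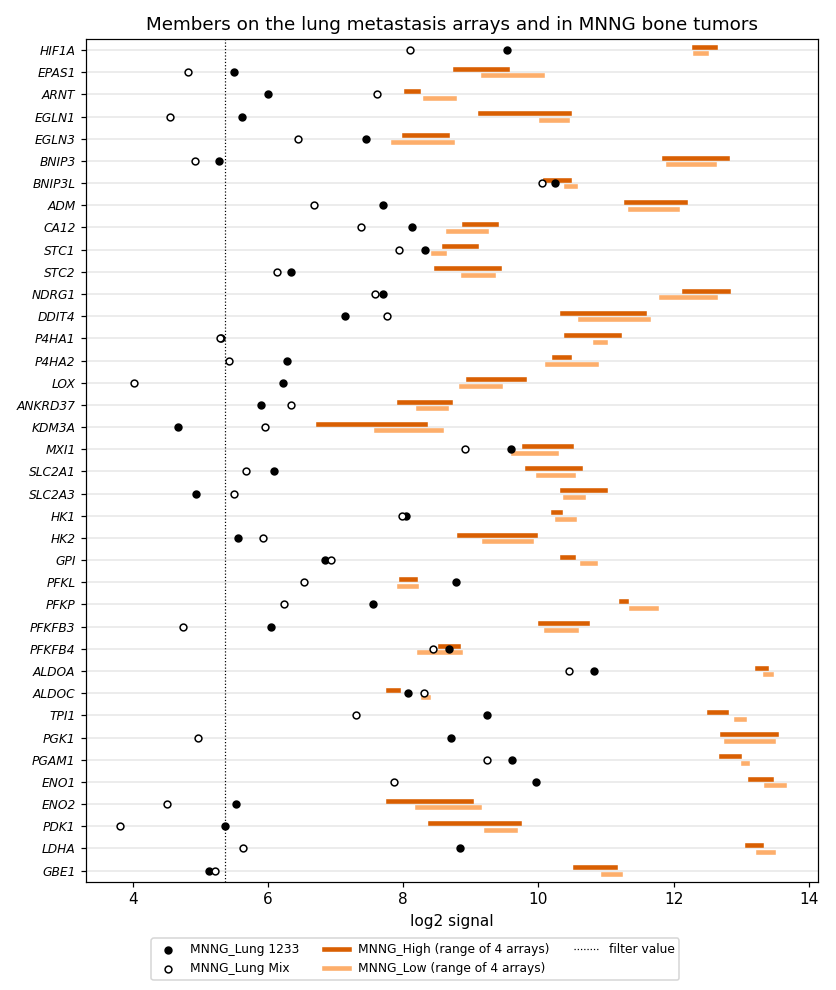
log2 signal (horizontal axis) of the 38 members on the 2 MNNG_Lung arrays, as points, beside MNNG_High and MNNG_Low. Bars span the 4 arrays of each bone group, and the dotted line is the filter value of 5.36. Most members lie far lower on the lung arrays, BNIP3L, STC1, PFKFB4 and ALDOC lie near their bone levels, and the lung values of PFKL lie on either side of them.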

How the data were processed

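RNA of 18 samples was hybridised to Affymetrix arrays after 3′ labelling, per the labels' protocols. The authors deposited log2 signals for 54675 probe sets, which come from RMA, per the submitters' processing notes (version not given in the sources used here). Probe sets were named from the platform annotation (41097 with 1 gene, 1801 with several, 11777 with none), and 19735 of 19777 Entrez IDs were found in RefSeq. Each gene was read from its probe set annotated to 1 gene with the highest mean over the 18 arrays, and kept where at least 3 arrays reached 5.36 (the median of all deposited values). This left 14418 of 19775 genes. No further normalization was applied, and RMA's common scale makes all differences relative to the other genes of an array. The number of arrays limits the precision.

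A limma 3.58.1 fit in R 4.3.3 held a mean for each of 5 groups, so that all groups shared an estimate of spread. The threshold was an adjusted p of 0.05 (Benjamini-Hochberg over all genes tested), in 7 comparisons. The scripts were tested on simulated data. The members and the lists of other genes were chosen with earlier results of these data known. All members are described by role, with array values for those called, at most 12 per comparison, and at most 4 called genes of each other list are named, by smallest p. High and Low arrays share tumors: over all genes, deviations from the group mean correlated at 0.299 to 0.579 within the 4 MNNG tumors, and at 0.542 within 143B-1253. Alternatives covered normalization, filter, probe set choice, array weights, covariates, the tumor block and leaving out each array. Promoter windows run from 250 bases before to 50 after a RefSeq start (GRCh38.p14), the most upstream one where a gene has several. No window was used for BNIP3L, STC1, NDRG1 and SLC2A3.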

Additional observations from a re-analysis of the deposited data

Results flagged for a closer look

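In 4 of 114 groups of arrays tested, the lowest array stood far from the others by Dixon's gap test, which chance alone passes in about 1 in 20 groups. HK2 read 8.83 in MNNG_High for MNNG-1233, with the next lowest array at 9.86. GPI read 10.35 in MNNG_High for MNNG-1231, with the next at 10.49. PFKL read 7.61 in 143B_Low for 143B-1252, with the next at 7.85, and ALDOA read 13.11 there, with the next at 13.18. None of the 4 genes was called between the dye fractions of either line in the fit over 18 arrays.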

How the results depend on the processing

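Between MNNG_High and MNNG_Low, 1 member was called, and the count was 3 with median centring, 4 with array weights, 4 without the lung arrays, 8 with the replicate block and no lung arrays, 2 with the GAPDH 3′ signal difference as covariate, and 0 with date tag as covariate, when 0.0208% of all genes were called. It was 0 among arrays of date tag 2 alone, an alternative added after seeing the data. Leaving out single arrays gave 1 to 3 (3 without MNNG_High of MNNG-1235). A second quantile normalization gave 1, which was STC1 higher in place of ALDOC, and moved the median of all genes to 0.01, against -0.19. In 143B_High against 143B_Low, array weights gave 2 and the GAPDH covariate 1; the block changed no call there or in the line difference. For 143B_Low against MNNG_Low, 14 became 22 with array weights and 8 of 23 tested without probe sets of names ending _x_at or _s_at, and single arrays left out gave 12 to 14. For 143B_High against MNNG_High, 11 became 17 and 5 of 23, and single arrays left out gave 8 (without 143B-54&55) to 15 (without MNNG-1235). Median centring there gave 9 higher and 6 lower, against 4 and 7. On lung arrays 33 became 20 of 23 against MNNG_Low and 35 became 21 of 23 against MNNG_High; fewer genes were tested. A second quantile normalization turned CA12 (0.09 against MNNG_Low), MXI1 (1.15 and 0.68 against MNNG_Low and MNNG_High) and STC1 (0.60 against MNNG_High), and gave 5 higher and 29 lower against MNNG_Low. Of single-member results, 257 of 274 between the lines in Low and 183 of 193 in High kept direction and call. The causes of these shifts were not tested. No paired fit was possible for line or lung comparisons, which share too few tumors. The number of arrays, 2 in the lung, and signal near 5.36 limit what can be read.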

Other observations

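Other genes around these pathways also differed between the lines. Of 9 measured regulators of HIF, 8 were tested. ARNT2, a relative of ARNT, was higher in 143B_Low than in MNNG_Low (1.16 ± 0.24), and CITED2, which competes with HIF for a coactivator, was lower (-1.13 ± 0.22). CA2, a cytosolic carbonic anhydrase, was higher in 143B in Low (2.83 ± 0.28) and in High (3.69 ± 0.32), while CA12 was lower. GYG1, glycogenin, which starts glycogen particles, was higher in 143B in Low (1.37 ± 0.19) and in High (1.54 ± 0.22), while GBE1 was lower. MYC was lower in 143B in both (-1.03 ± 0.14 in Low and -0.68 ± 0.15 in High). All were called by limma.

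Between MNNG_High and MNNG_Low, HIF1AN, an asparagine hydroxylase that restrains HIF, was lower in MNNG_High (-0.86 ± 0.24), CITED2 was higher (0.67 ± 0.23), TIGAR, which lowers the signal for glycolysis, was lower (-0.88 ± 0.28), and CA2 was lower (-0.92 ± 0.30), while the carbonic anhydrases CA7 (0.49 ± 0.11) and CA4 (0.57 ± 0.15) were higher, all called by limma, among the 26.1% of all genes called there.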
